A study of Mus musculus with 4 samples.

Results

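The 43 genes described here encode proteins that carry cells through the cell cycle and copy their DNA: cyclins and their kinases, the machinery that licenses and fires replication origins, enzymes that make DNA precursors, and the proteins that build the spindle, attach chromosomes to it and separate the daughter cells. They were taken as a given list of symbols that uses no measured value as a criterion, although the list was drawn up with earlier results of these data known, and matched to Ensembl genes through the GENCODE annotation of mm10. All 43 were found among the 54532 genes listed in each library, of which 18263 were protein-coding genes with at least 1 read in any of the 4 libraries.

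Poly-A RNA of brain from C57BL/6 mice, an inbred laboratory strain, was sequenced in 4 groups. In the old tumor-bearing group, the brains of old mice had been engrafted with 50000 GL261 cells, a mouse glioma line of the same strain, and extra-tumoral tissue, brain outside the tumor mass, was collected on day 21. The old naive group had no tumor, the young tumor-bearing group received the same graft at 8 to 12 weeks of age, and the young naive group was its control. No further genetic change or treatment is named for any group. The old mice are labelled 8 to 90 weeks, so that range begins where that of the young mice does, and the naive samples carry the GL261 tag as well; the age and group tags were followed. There was 1 library for each group, and the sources used here do not give how many mice it came from. The differences below are therefore between libraries, with no replicates and no test.

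Most cells of the adult brain do not divide, so transcripts of this kind are low there apart from small niches of precursor cells and glia that renew themselves. In dividing cells, cyclin D and cyclin E with their kinases release E2F factors, which switch on the genes of DNA synthesis. Later in the cycle a second wave, driven by B-MYB, FOXM1 and the MuvB complex, switches on the genes of mitosis. The same promoters are held silent in resting cells by the DREAM complex, which acts through E2F and CHR elements, and many of the mitotic ones also carry CCAAT boxes bound by NF-Y.

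Those elements could be read in the promoters of most of the genes. RefSeq promoter windows on GRCm38.p6, the assembly also called mm10, were available for 34 of the 43 genes, in 36 windows, and the 250 bases upstream of each start were searched on both strands. The following stretches of 120 bases show promoters of genes of mitosis and proliferation whose ratios between libraries were high (Ccnb2, Cdk1, Top2a, Mki67 and Bub1), of an MCM gene with a different element, and of Ccne1, which differed little. Capitals mark the CCAAT box, which reads ATTGG when it lies on the other strand, and the CHR element, which reads TTTGAA or TTCAAA. In the MCM promoter they also mark the E2F element TTTGGCGC.
Ccnb2: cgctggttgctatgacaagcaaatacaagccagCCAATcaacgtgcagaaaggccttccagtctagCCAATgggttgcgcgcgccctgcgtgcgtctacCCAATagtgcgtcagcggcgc
Cdk1: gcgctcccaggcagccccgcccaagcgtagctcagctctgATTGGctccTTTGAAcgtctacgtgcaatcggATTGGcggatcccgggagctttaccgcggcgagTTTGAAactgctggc
Top2a: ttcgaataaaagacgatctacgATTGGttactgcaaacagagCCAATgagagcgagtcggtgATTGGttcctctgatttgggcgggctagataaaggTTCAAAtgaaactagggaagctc
Mki67: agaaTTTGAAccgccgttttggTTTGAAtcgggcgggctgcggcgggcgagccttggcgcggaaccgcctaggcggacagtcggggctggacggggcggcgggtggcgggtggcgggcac
Bub1: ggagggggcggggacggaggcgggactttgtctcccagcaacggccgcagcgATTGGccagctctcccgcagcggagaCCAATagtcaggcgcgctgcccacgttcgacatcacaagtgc
Mcm6: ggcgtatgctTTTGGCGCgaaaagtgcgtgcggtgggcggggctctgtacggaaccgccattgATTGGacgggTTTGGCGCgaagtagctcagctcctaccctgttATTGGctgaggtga
Ccne1: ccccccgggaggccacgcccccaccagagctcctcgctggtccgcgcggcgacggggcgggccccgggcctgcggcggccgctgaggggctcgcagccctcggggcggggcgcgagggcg
All 7 lie on the minus strand and are written 5′ to 3′ in the direction of the gene. They are chr9:70421555-70421674 for Ccnb2, chr10:69352913-69353032 for Cdk1, chr11:99024190-99024309 for Top2a, chr7:135716380-135716499 for Mki67, chr2:127831860-127831979 for Bub1, chr1:128359706-128359825 for Mcm6 and chr7:38107535-38107654 for Ccne1. Each ends at the base before the RefSeq start, except that of Ccne1, which ends 44 bases further upstream, and the stretches of Cdk1 and Bub1 reach 26 and 6 bases into the first exon of the longer GENCODE gene.

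The Ccnb2 and Top2a stretches each held 3 CCAAT boxes, and those of Cdk1, Bub1 and Mcm6 held 2. CHR sequences stood in the stretches of Cdk1 (2), Mki67 (2) and Top2a (1), and only the Mcm6 stretch, among the 7, held an E2F element, in 2 copies. None of these letters occurred in the Ccne1 stretch. The stretches leave out matches further upstream: CCAAT at 188, 166 and 141 bases before the start of Mki67, and TTTGAA at 167 bases before that of Ccnb2. The genes shown were chosen by their ratios, and only 2 genes within 2-fold in the old pair had a window. A link between these letters and the ratios was not tested. Over whole windows, CCAAT was found in 29 of 36 windows of the listed genes (80.6%), against 11120 of all 32851 windows (33.8%), and 2 or more copies in 17 (47.2%), against 10.1% of all windows. TTTGAA was found in 10 windows (27.8%), against 16% of all, and any of the E2F elements TTTCCCGC, TTTGGCGC and TTTCCCGG in 5 (13.9%), against 2.26%. The only overlapping matches among these windows were 1 pair of CCAAT boxes on opposite strands, in that of Ube2c. The E2F elements lay mostly with the licensing and helicase genes (4 of 8 windows). CCAAT was present in 7 of 8 windows of those genes too, in 5 of 5 of mitotic kinases and cyclins and in 7 of 8 of the kinetochore and checkpoint genes. These are matches of letters, not binding sites, and the genes without an entry were Ccnd1, Ccne2, Mcm4, Gins2, Ccna2, Foxm1, Aurkb, Tpx2 and Kif20a.

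Values are FPKM, the fragments of a gene per kilobase of its exons and scaled to depth by a divisor that the authors chose. Recovered reads in genes were 19572261 in the old tumor-bearing, 19629001 in the old naive, 21893368 in the young tumor-bearing and 23267928 in the young naive library, and the divisor was 1.19, 0.797, 0.913 and 0.879 times these, in that order. Of all reads in genes, the 43 genes took 89751 in old tumor-bearing and 3777 in old naive tissue, that is 4586 (4556 to 4616) and 192 (186 to 199) reads in every 1000000. In young tissue they took 7447 reads in the tumor-bearing and 4671 in the naive library, that is 340.1 (332 to 348) and 201 (195 to 207) in every 1000000. The old tumor-bearing library thus stood far above the other 3, and the young tumor-bearing library above both naive ones. Ranges in parentheses here and after each fold are exact 95% intervals from the reads, which cover counting error only. A count of 0 reads would allow up to 3 reads, and for a gene of 1 kb 3 reads are 0.129, 0.192, 0.150 and 0.147 FPKM in the same order of libraries. The tissue is bulk, so more cells with these transcripts and more transcripts per cell cannot be told apart.

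In old mice, 40 of the 43 genes were at least 2-fold higher in tumor-bearing than in naive tissue on the scale log2(FPKM + 0.1), and 0 were lower by that much. The same fold was reached upward by 18.5% and downward by 25.7% of all protein-coding genes. The median log2 ratio of the 43 genes was 4.69, with a range of -0.03 to 7.87, against -0.17 for all protein-coding genes, of which 287 (1.57%) lay at or above 4.69. The genes within 2-fold were Ccne1, Ccne2 and E2f1. In young mice, 19 of 43 were higher by at least 2-fold and 0 lower, with 5.03% of protein-coding genes higher and 1.22% lower. With 1 added in place of 0.1, 3 of 43 were higher with a median of 0.45, and of the 26 genes with at least 1 FPKM in either young library 10 were. As first counted, the median was 0.95 and the range -0.12 to 2.96, against 0.00 for all protein-coding genes, of which 988 (5.41%) lay at or above 0.95. The added 0.1 understates differences of low genes, and folds given for single genes are ratios of FPKM without it. The deposited scale sets the old background: rescaling the libraries shifted the median of all protein-coding genes by 0.17 to 0.41 in this old pair, with 4392 higher and 3474 lower under median-of-ratios scaling in place of 3373 and 4695. The median of the 43 genes lay 4.85 above that of all genes as deposited and 4.93 to 4.96 above it under the other scalings.

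**Figure D1:**
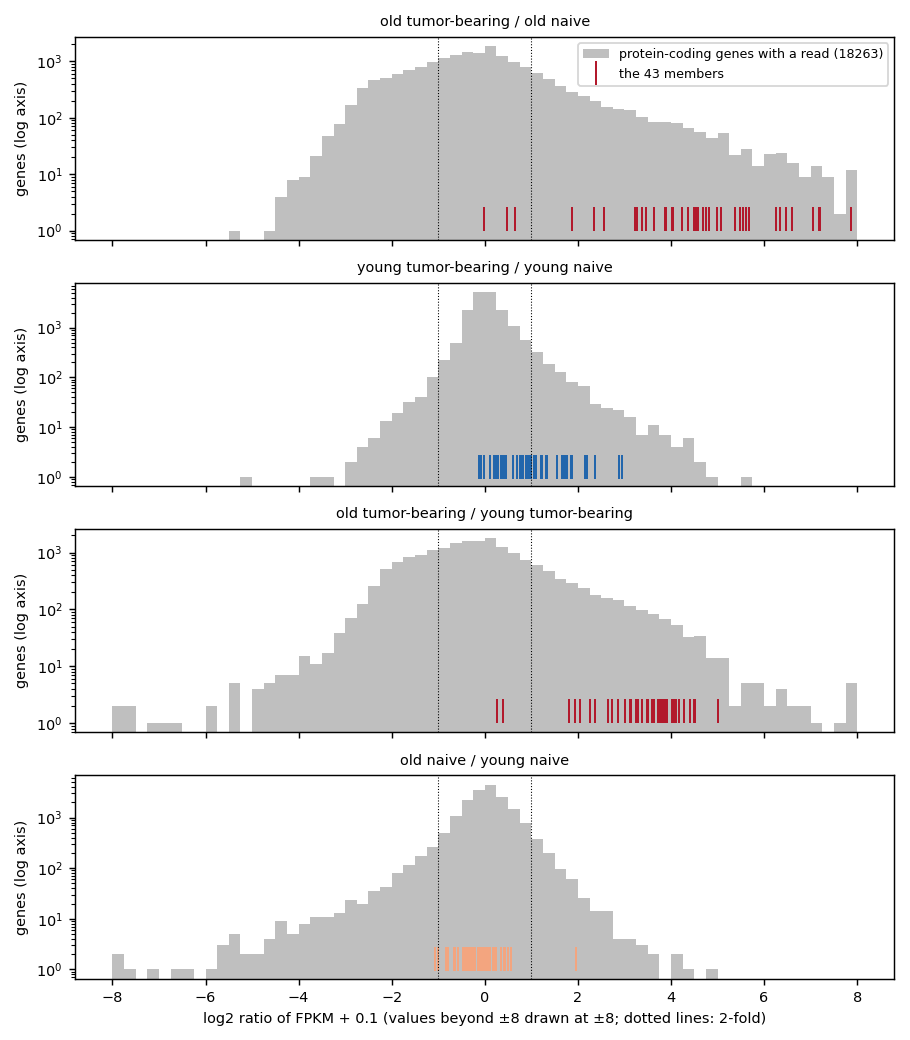
Histograms of log2 ratios of FPKM + 0.1 for the 18263 protein-coding genes with a read (grey, log axis of gene counts), with the 43 cell cycle and replication genes as colored ticks, 1 panel for each of 4 comparisons of 2 libraries; dotted lines mark 2-fold. The ticks reach 7.87 in the old tumor comparison and 2.96 in the young comparison, and lie around 0 in old naive against young naive tissue, apart from E2f1 at 1.95.

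Levels spread over a wide range within each library. The summed FPKM of the 43 genes was 901 in old tumor-bearing and 68.7 in old naive tissue, and 94.8 in young tumor-bearing and 63.9 in young naive tissue. Their medians were 15.6, 0.437, 1.23 and 0.551 FPKM in that order. All 43 reached 1 FPKM in the old tumor-bearing library, against 10 in the old naive one, and 26 did so in the young tumor-bearing library, against 12 in the young naive one. Among all protein-coding genes, 1 FPKM lay below percentile 42.0 in old tumor-bearing tissue, where Gins2 stood. It lay between percentiles 32.3 (Aurka) and 33.9 (Mcm3) in old naive tissue. In young tumor-bearing tissue it lay between 29.4 (Aurkb) and 32.0 (Kif20a), and in young naive tissue between 32.2 (Aurka) and 32.6 (Ccnb2). The lowest gene of the old tumor-bearing library, Gins2 at 2.34 FPKM, was thus above the median gene of each of the other 3. Counts in the naive libraries were small: 8 genes in the old naive and 5 in the young naive library had under 10 reads, against 0 in either tumor-bearing library.

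**Figure D2:**
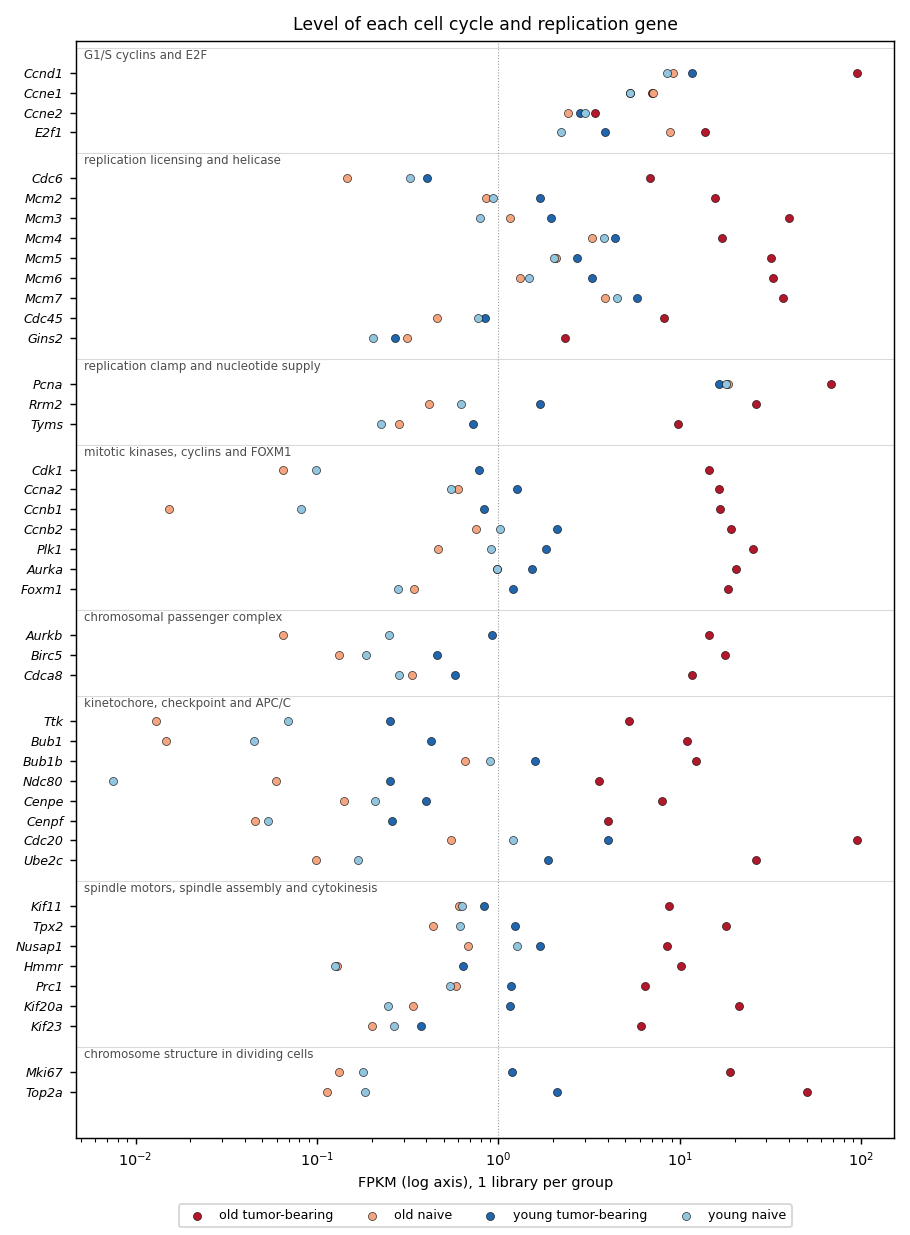
FPKM of each of the 43 genes on a log axis, grouped by role, with 1 point for each library and no error bars since each group is 1 library. The old tumor-bearing points lie to the right of the other 3 for every gene except Ccne1, where old naive tissue had 7.11 FPKM and old tumor-bearing tissue 6.98.

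The cyclins and E2F factor of the G1/S transition had the lowest median tumor ratio of the 8 roles. Its log2 was 0.56 in old and 0.22 in young tissue, but single genes of the group differed more. Ccnd1, which encodes cyclin D1, the cyclin that growth signals induce to start the cycle (ENSMUSG00000070348, chr7:144929931-144939925), was at 94.9 FPKM in old tumor-bearing, 9.11 in old naive, 11.6 in young tumor-bearing and 8.44 FPKM in young naive tissue. It was 10.4-fold higher (9.63 to 11.3) with tumor in old tissue and 1.38-fold higher (1.26 to 1.51) in young tissue, and it was the gene with the highest FPKM of the 43 in the old tumor-bearing library. Of its exon bases, 23.4% are shared with LTO1 on the opposite strand, whose FPKM lay between 1.98 and 2.31 in the 4 libraries. Ccne1 and Ccne2 encode cyclin E1 and cyclin E2, which with CDK2 push cells into DNA synthesis. Ccne1 did not differ with tumor beyond counting error: 6.98 FPKM in old tumor-bearing and 7.11 in old naive tissue (0.982-fold, 0.845 to 1.14), and 5.28 in young tumor-bearing and 5.33 FPKM in young naive tissue (0.991-fold, 0.838 to 1.17). Its old log2 ratio of -0.03 turned positive under each of the other 4 scalings. Ccne2 was at 3.41 and 2.43 FPKM in old tumor-bearing and old naive tissue (1.40-fold, 1.14 to 1.74) and at 2.82 and 2.99 FPKM in young tumor-bearing and young naive tissue (0.941-fold, 0.772 to 1.15). E2f1, a transcription factor that activates replication genes, differed more between old and young libraries than between tumor-bearing and naive ones. It was at 13.8 FPKM in old tumor-bearing and 8.81 in old naive tissue (1.57-fold, 1.40 to 1.76), and at 3.85 in young tumor-bearing and 2.20 FPKM in young naive tissue (1.75-fold, 1.42 to 2.17). Both old libraries were thus above both young ones, and the ratio of the naive ones was 4.0-fold (3.30 to 4.87). Cerebellar markers, given below, also split the old from the young libraries, so age and region cannot be told apart for E2f1.

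All 9 genes of replication licensing and the replicative helicase were at least 2-fold higher in old tumor-bearing than in old naive tissue, with a median log2 ratio of 3.90. In young tissue 2 of 9 were, Mcm3 and Mcm6, with a median of 0.36. Mcm2 to Mcm7 encode the 6 subunits of the ring-shaped helicase that unwinds DNA at the fork, which assemble in equal numbers. Mcm3 was highest of the 6 in old tumor-bearing tissue at 39.9 FPKM, against 1.16 in old naive tissue (34.4-fold, 27.1 to 44.4), and in young tissue it was at 1.96 in the tumor-bearing and 0.795 FPKM in the naive library (2.46-fold, 1.82 to 3.38). Mcm6 was at 32.7 and 1.31 FPKM in old tumor-bearing and old naive tissue (24.8-fold, 20.3 to 30.8) and at 3.26 and 1.47 FPKM in young tumor-bearing and young naive tissue (2.22-fold, 1.81 to 2.73). Mcm4 had the smallest fold of the 6 in both ages, 5.20 (4.45 to 6.09) in old and 1.15 (0.976 to 1.35) in young tissue, from 17.0 and 3.28 FPKM in old tumor-bearing and old naive tissue and 4.40 and 3.83 FPKM in the young pair. Mcm2, Mcm3 and Mcm6, the lowest of the 6 in both naive libraries, had the 3 largest folds in both ages, and levels of the 6 lay closer together in the tumor-bearing libraries. The highest of the 6 was 2.55 times the lowest in old tumor-bearing and 4.55 times in old naive tissue, and 3.40 times in young tumor-bearing and 5.66 times in young naive tissue. Their mean was 29.0, 2.09, 3.31 and 2.26 FPKM, with a coefficient of variation over the 6 genes of 35.4%, 58.9%, 47.1% and 68.8% in the same order of libraries.

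The other licensing and helicase genes were lower than each MCM gene in all 4 libraries. Cdc6, which loads the MCM ring onto origins, was at 6.84 FPKM in old tumor-bearing and 0.147 in old naive tissue (46.7-fold, 26.6 to 90.7) but at 0.402 and 0.327 FPKM in young tumor-bearing and young naive tissue, a ratio whose interval held 1 (1.23-fold, 0.765 to 1.98). Cdc45 and Gins2 encode partners that switch the loaded ring on. Cdc45 was at 8.17 and 0.456 FPKM in old tumor-bearing and old naive tissue (17.9-fold, 12.0 to 27.9) and at 0.841 and 0.767 FPKM in the young pair (1.1-fold, 0.747 to 1.61). Of its exon bases, 5.96% are shared with Ufd1 on the opposite strand. Ufd1 lay between 10.9 and 17.7 FPKM across the libraries, so the lower values of Cdc45 are uncertain. Gins2 was 7.50-fold higher (4.74 to 12.5) with tumor in old tissue, at 2.34 against 0.312 FPKM, and 1.32-fold (0.671 to 2.65) in young tissue. Its value is uncertain, because 67.3% of its exon bases are shared with Gse1 on the opposite strand, which was at 2.65, 7.41, 5.99 and 5.05 FPKM in old tumor-bearing, old naive, young tumor-bearing and young naive tissue. In young tissue, therefore, the intervals of Cdc6, Cdc45, Gins2 and Mcm4 held 1, while those of Mcm2, Mcm3, Mcm5, Mcm6 and Mcm7 lay above it. Cdc6, Cdc45 and Gins2 had only 42, 59 and 22 reads in young tumor-bearing tissue, so their intervals were wide.

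The clamp and nucleotide supply genes behaved unlike one another. Pcna encodes the ring that holds DNA polymerase on its template and also serves DNA repair. It was the highest of the 43 genes in every library but the old tumor-bearing one, where it was number 3. It was at 67.7 FPKM in old tumor-bearing and 18.5 in old naive tissue (3.65-fold, 3.37 to 3.97) and at 16.4 in young tumor-bearing and 17.9 FPKM in young naive tissue (0.921-fold, 0.835 to 1.01). Old tumor-bearing tissue stood alone, and the other 3 libraries were close to each other. Rrm2, the subunit of ribonucleotide reductase that is made in S phase, was at 26.3 and 0.415 FPKM in old tumor-bearing and old naive tissue (63.3-fold, 39.9 to 107) and at 1.70 and 0.618 FPKM in the young pair (2.75-fold, 1.84 to 4.17). Tyms, the enzyme that makes the thymidine precursor, was at 9.79 and 0.283 FPKM in the old pair (34.5-fold, 23.6 to 52.6) and at 0.723 and 0.225 FPKM in the young pair (3.21-fold, 2.08 to 5.11). Both enzymes of nucleotide supply thus differed with tumor in both ages, and the clamp gene in old tissue.

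**Figure D3:**
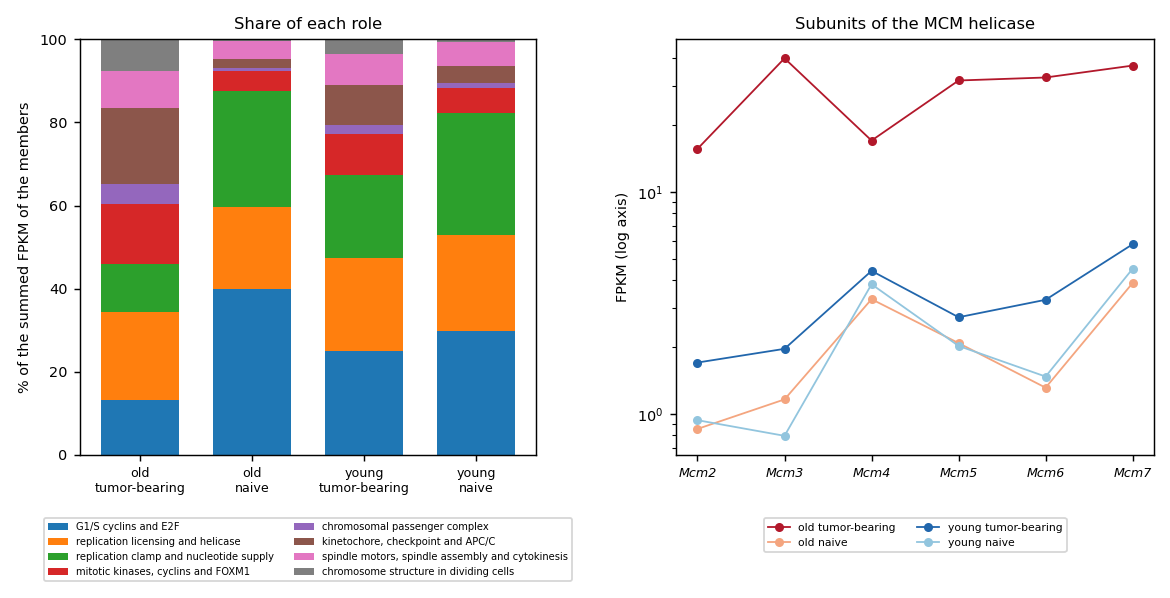
Left, share of each of the 8 roles in the summed FPKM of the 43 genes, as stacked bars for the 4 libraries; right, FPKM of the 6 MCM subunit genes on a log axis, with 1 line for each library. Kinetochore, checkpoint and APC/C genes made up 18.3% of the sum in old tumor-bearing and 2.29% in old naive tissue, and the MCM genes spanned 2.55-fold in old tumor-bearing and 4.55-fold in old naive tissue.

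Among mitotic kinases, cyclins and their activator FOXM1, 7 of 7 genes were at least 2-fold higher with tumor in old tissue (median log2 ratio 5.38) and 4 of 7 in young tissue (median 1.06). Cdk1, the kinase that drives entry into mitosis (ENSMUSG00000019942, chr10:69335146-69352938), was at 14.5 FPKM in old tumor-bearing and 0.0648 in old naive tissue, 1659 and 5 reads (223-fold, 95.5 to 688), and at 0.780 and 0.0991 FPKM in young tumor-bearing and young naive tissue, 77 and 10 reads (7.87-fold, 4.06 to 17.1). Its partner cyclin B1, encoded by Ccnb1, had 1638 reads (16.7 FPKM) in old tumor-bearing and 1 read (0.0152 FPKM) in old naive tissue. With a single read, the ratio of 1102-fold has an interval of 198 to 43558. In young tissue Ccnb1 had 70 reads in the tumor-bearing and 7 in the naive library (10.2-fold, 4.71 to 26.4). The ratios of cyclin B2 were smaller: Ccnb2 was at 19.2 and 0.751 FPKM in old tumor-bearing and old naive tissue (25.6-fold, 16.1 to 43.4) and at 2.09 and 1.0 FPKM in the young pair (2.04-fold, 1.32 to 3.23). The transcribed copy Ccnb2-ps had 37 and 31 reads in old tumor-bearing and old naive tissue and 96 and 113 in the young pair, against 684 and 18 and 64 and 32 for Ccnb2 itself, so the lower values of Ccnb2 are uncertain. Ccna2, encoding cyclin A2, which acts in S phase and early mitosis, was 27.6-fold (20 to 39.2) and 2.29-fold (1.6 to 3.32) higher with tumor in old and young tissue. Of its exon bases, 12.5% are shared with Exosc9 on the opposite strand, which lay between 3.24 and 4.19 FPKM across the libraries. Ccna2 itself was at 0.595 FPKM in old naive and 0.551 FPKM in young naive tissue, so its lower values are uncertain.

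The kinases of the spindle poles and the transcription factor of the group followed the same order. Plk1, which matures centrosomes, was at 25.3 and 0.465 FPKM in old tumor-bearing and old naive tissue (54.3-fold, 33.3 to 95.3) and at 1.82 and 0.912 FPKM in the young pair (1.99-fold, 1.35 to 2.98). Aurka, the centrosomal Aurora kinase, was at 20.4 and 0.985 FPKM in the old pair (20.7-fold, 15 to 29.2) and at 1.54 and 0.986 FPKM in the young pair (1.56-fold, 1.08 to 2.27). Foxm1, which activates mitotic genes, was at 18.4 and 0.344 FPKM in old tumor-bearing and old naive tissue (53.4-fold, 37.5 to 78.7) and at 1.20 and 0.281 FPKM in young tumor-bearing and young naive tissue (4.28-fold, 2.91 to 6.46). In old tumor-bearing tissue the 7 genes lay within 14.5 to 25.3 FPKM of each other, whereas in old naive tissue they ranged over 0.0152 to 0.985 FPKM.

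The chromosomal passenger complex corrects faulty attachments of chromosomes to the spindle, and 3 of its genes are on the list. All 3 were at least 2-fold higher with tumor in old tissue (median log2 ratio 6.26), and 1 of 3, Aurkb, in young tissue (median 0.95). Aurkb, its kinase, had 992 reads in old tumor-bearing and 3 in old naive tissue (222-fold, 75.9 to 1081), and 54 in young tumor-bearing and 15 in young naive tissue (3.68-fold, 2.05 to 7.02). Birc5, which encodes survivin, was at 17.7 and 0.132 FPKM in the old pair (135-fold, 65.1 to 335) and at 0.456 and 0.187 FPKM in the young pair (2.44-fold, 1.24 to 5.08). Cdca8, encoding borealin, was at 11.6 and 0.333 FPKM in old tumor-bearing and old naive tissue (34.9-fold, 23.9 to 53.1), and in young tissue it was 2.04-fold higher (1.3 to 3.28) with tumor. The young ratios of Birc5 and Cdca8 pass 2-fold only without the added 0.1, as both genes are low.

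Genes of the kinetochore, the spindle checkpoint and the anaphase-promoting complex were at least 2-fold higher with tumor in 8 of 8 cases in old tissue (median log2 ratio 5.31) and in 6 of 8 in young tissue (median 1.44). Cdc20, the activator that lets the complex destroy cyclin B and start anaphase (ENSMUSG00000006398, chr4:118432901-118437352), was at 94.5 FPKM in old tumor-bearing and 0.547 in old naive tissue, 4106 and 16 reads (173-fold, 106 to 302). In young tissue it was at 4.04 in the tumor-bearing and 1.20 FPKM in the naive library (3.36-fold, 2.40 to 4.78). It was the second highest of the 43 genes in the old tumor-bearing library, next to Ccnd1, and number 19 in the old naive one. Ube2c, the ubiquitin-conjugating enzyme of the same complex, was at 26.3 and 0.0983 FPKM in old tumor-bearing and old naive tissue, 1588 and 4 reads (267-fold, 104 to 982), and at 1.88 and 0.169 FPKM in the young pair, 98 and 9 reads (11.1-fold, 5.63 to 25.1). Of its exon bases, 22.8% are shared with Tnnc2 on the opposite strand, which did not exceed 0.161 FPKM in any library. Both of these genes had at most 46 reads in a naive library and at least 98 in a tumor-bearing one.

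The checkpoint kinases were nearly silent in naive tissue. Bub1 had 1118 reads in old tumor-bearing and 1 in old naive tissue (752-fold, 135 to 29739) and 37 in young tumor-bearing and 4 in young naive tissue (9.46-fold, 3.40 to 36.5). Ttk, the kinase that starts the checkpoint signal, had 597 reads and 1 read in the old pair (402-fold, 71.8 to 15892) and 25 and 7 in the young pair (3.65-fold, 1.54 to 10). Bub1b, which encodes the checkpoint protein BUBR1, was less low in naive tissue: it was at 12.2 and 0.658 FPKM in old tumor-bearing and old naive tissue (18.6-fold, 13.8 to 25.7) and at 1.6 and 0.904 FPKM in the young pair (1.77-fold, 1.33 to 2.37). The kinetochore genes Ndc80, Cenpe and Cenpf, which encode a microtubule-binding subunit, a motor and a scaffold protein, were 60.8-fold (27.7 to 166), 56.7-fold (36.2 to 94.5) and 87.8-fold (48.9 to 176) higher with tumor in old tissue. In young tissue Ndc80 had 33 reads in the tumor-bearing and 1 in the naive library (33.7-fold, 5.65 to 1372), Cenpf was 4.81-fold higher (2.83 to 8.66) and Cenpe 1.91-fold (1.26 to 2.92).

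All 7 genes of spindle motors, spindle assembly and cytokinesis were at least 2-fold higher with tumor in old tissue (median log2 ratio 4.37) and 2 of 7, Hmmr and Kif20a, in young tissue (median 0.89). Hmmr, which encodes a microtubule-associated hyaluronan receptor, was at 10.1 and 0.129 FPKM in old tumor-bearing and old naive tissue (78.2-fold, 43.5 to 157) and at 0.635 and 0.126 FPKM in the young pair (5.04-fold, 2.81 to 9.69). Kif20a, a kinesin of the cleavage furrow, was at 21.1 and 0.337 FPKM in the old pair and at 1.16 and 0.245 FPKM in the young pair, and 29.3% of its exon bases are shared with Cdc23 on the opposite strand, which was at 7.77, 4.74, 6.59 and 5.96 FPKM in old tumor-bearing, old naive, young tumor-bearing and young naive tissue. The smallest old folds of the group were those of Prc1, which bundles the midzone microtubules (11.1-fold, 8.78 to 14.2), Nusap1, which binds microtubules near chromosomes (12.5-fold, 9.22 to 17.5), and Kif11, the motor that pushes spindle poles apart (14.2-fold, 11.2 to 18.4). These 3 were also at 0.583, 0.677 and 0.610 FPKM in old naive tissue, the highest naive levels of the group. Of the exon bases of Prc1, 11.1% are shared with Rccd1 on the opposite strand. Rccd1 lay between 1.35 and 1.97 FPKM across the libraries. Tpx2, which activates Aurora A on the spindle, was 40.9-fold higher (28.9 to 60) with tumor in old and 1.99-fold (1.44 to 2.78) in young tissue, and Kif23, a motor of the cytokinetic midbody, 30.4-fold (20.5 to 47.2) and 1.40-fold (0.931 to 2.13).

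Mki67 and Top2a, the usual markers of proliferating cells, act on chromosomes themselves: the Ki-67 protein coats them in mitosis and topoisomerase IIα untangles them. Top2a (ENSMUSG00000020914, chr11:98992943-99024189) was at 49.9 FPKM in old tumor-bearing and 0.113 in old naive tissue, 10448 and 16 reads (439-fold, 270.4 to 769), and at 2.11 in young tumor-bearing and 0.185 FPKM in young naive tissue, 380 and 34 reads (11.4-fold, 8.03 to 16.7). Its log2 ratio was the highest of the 43 genes in both ages. Among the 43 it was number 4 in level in the old tumor-bearing library, number 35 in the old naive, number 11 in the young tumor-bearing and number 34 in the young naive library. Mki67 (ENSMUSG00000031004, chr7:135689784-135716361) was at 18.8 FPKM in old tumor-bearing and 0.133 in old naive tissue (141-fold, 92 to 228), and at 1.19 in young tumor-bearing and 0.18 FPKM in young naive tissue (6.60-fold, 4.66 to 9.61).

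**Figure D4:**
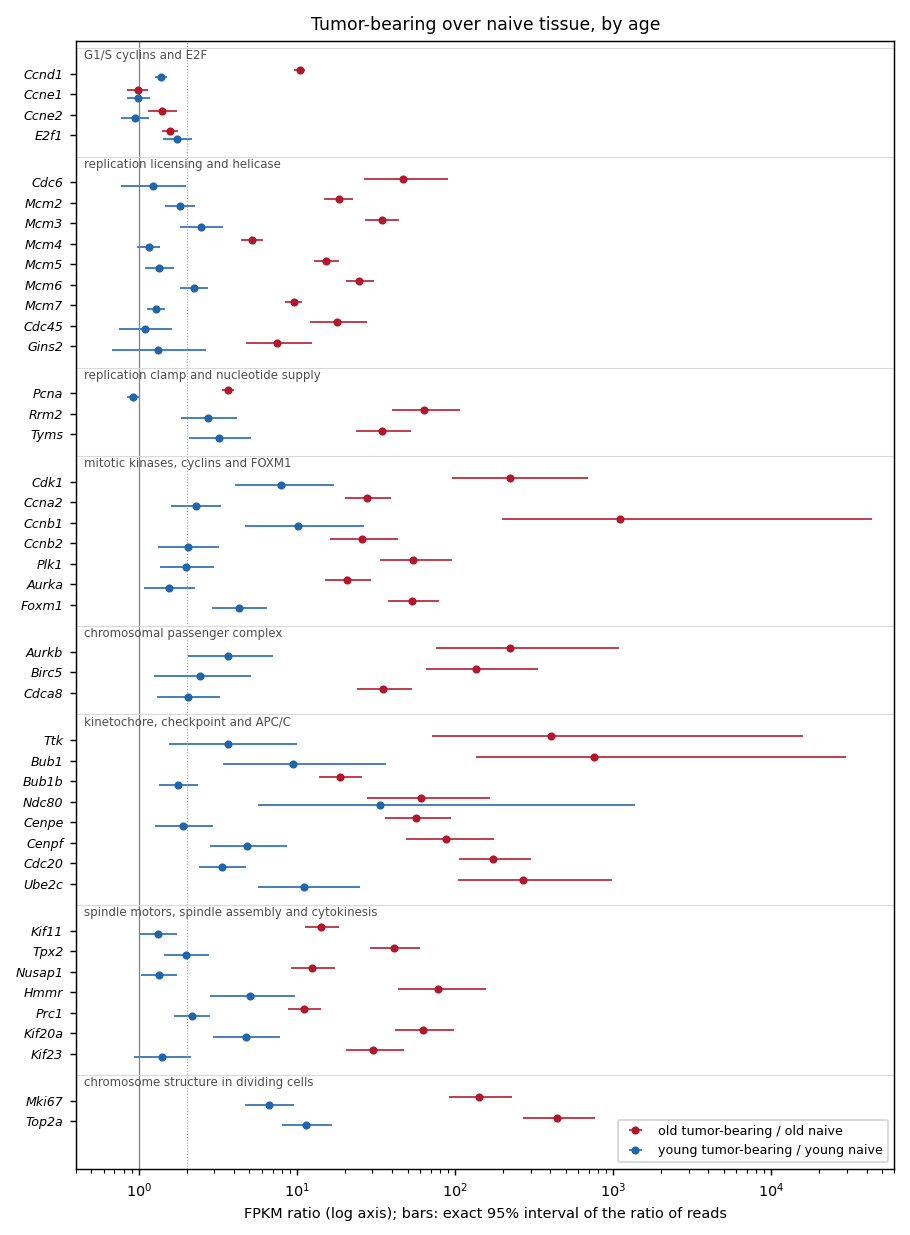
Ratio of FPKM in tumor-bearing over naive tissue for each of the 43 genes on a log axis, in old (red) and young (blue) mice, with exact 95% intervals of the ratio of reads as bars, which cover counting error only. In old tissue 42 intervals lie above 1 and that of Ccne1 holds 1, and in young tissue 35 lie above 1 and 8 hold it.

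Most intervals lay away from a ratio of 1. In old tissue 40 of 43 genes had a whole interval beyond 2-fold and 42 an interval above 1, against 14.0% and 30.3% of all protein-coding genes. In young tissue 14 had a whole interval beyond 2-fold and 35 an interval above 1, against 2.06% and 22.9%, and the 8 whose interval held 1 were Ccne1, Ccne2, Cdc6, Mcm4, Cdc45, Gins2, Pcna and Kif23. Of these 8, 7 act at G1/S or in DNA replication and 1, Kif23, in cytokinesis. The roles of the 7 hold 4 (G1/S), 9 (licensing and helicase) and 3 (clamp and nucleotide supply) of the 43 genes. Cdc6, Cdc45, Gins2 and Kif23 had only 42, 59, 22 and 59 reads in young tumor-bearing tissue, so their intervals were wide. The list of 8 thus depends on depth, and a split by role was not tested.

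In both ages the G1/S genes had the lowest and Mki67 and Top2a the highest median ratio of the 8 roles (for that pair, log2 7.10 in old and 2.58 in young tissue). Over the 43 genes, the old and young tumor ratios, which share no library, had a Spearman correlation of 0.83. This is across genes, which are not independent replicates, and both ratios are taken over naive levels, which had a correlation of 0.96 between old and young tissue. The levels in old tumor-bearing tissue correlated with those in young tumor-bearing tissue at 0.68 and with those in old naive tissue at 0.35, and young tumor-bearing with young naive levels at 0.83. The make-up of the sum differed accordingly. Genes of the G1/S group held 13.2% of the summed FPKM in old tumor-bearing and 40.0% in old naive tissue, and 24.9% in young tumor-bearing and 29.7% in young naive tissue. Mitotic kinases and cyclins held 14.5% and 4.69% in the old pair and 10% and 6.16% in the young pair, and Mki67 and Top2a 7.62% and 0.359% in the old pair and 3.48% and 0.570% in the young pair. Licensing and helicase genes held a like share, 21.2%, 19.6%, 22.5% and 23.2% in old tumor-bearing, old naive, young tumor-bearing and young naive tissue.

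Set against young tumor-bearing tissue, old tumor-bearing tissue had 41 of 43 genes higher by at least 2-fold and 0 lower, with a median log2 ratio of 3.64 and a range of 0.27 to 5.0. Of all protein-coding genes, 16.3% were higher and 25.3% lower, and their median was -0.22, which other scalings shifted by 0.09 to 0.28. The exceptions were Ccne1 at 1.32-fold (1.14 to 1.54) and Ccne2 at 1.21-fold (1.0 to 1.46), and the interval lay above 1 for all 43, against 29.9% of all protein-coding genes. Birc5 had the highest ratio, at 17.7 FPKM in old tumor-bearing and 0.456 in young tumor-bearing tissue (38.8-fold, 27.2 to 57.4), followed by Bub1 at 26-fold (18.7 to 37.1), Top2a at 23.6-fold (21.3 to 26.3) and Cdc20 at 23.4-fold (19.9 to 27.7). Mcm4 at 3.87-fold (3.42 to 4.38), Pcna at 4.12-fold (3.81 to 4.45), E2f1 at 3.58-fold (3.11 to 4.14) and Nusap1 at 5.03-fold (4.19 to 6.07) were among the smaller ones.

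Without tumor few of the genes were 2-fold apart between the ages, a share near that of all genes. In old naive against young naive tissue 1 of 43 was at least 2-fold higher, E2f1, and 2 were lower, Aurkb and Cdc20, while 4.45% of all protein-coding genes were higher and 4.58% lower. The median log2 ratio was -0.22 and the range -1.08 to 1.95, against a median of 0.00 for all protein-coding genes. Aurkb had 3 reads in old naive and 15 in young naive tissue (0.261-fold, 0.0485 to 0.924), and Cdc20 16 and 46 (0.455-fold, 0.240 to 0.818). The interval held 1 for 34 genes, lay above 1 for E2f1, Ccne1 and Mcm3 (28.8% of all protein-coding genes), and lay below 1 for Cdc6, Cdc45, Plk1, Aurkb, Cdc20 and Nusap1 (23.7%). The log2 ratio was below 0 for 28 of the 43 and above 0 for 15, or for 9 under 3 of the other scalings. Depth limits this comparison, since the intervals of Aurkb and Cdc20 also held ratios of under 2-fold, and low reads cannot show that levels are alike.

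For the difference between the tumor ratios of the 2 ages, the log2 ratio of the young pair was taken from that of the old pair. It was at least 1, that is 2-fold, for 40 of 43 genes and at most -1 for 0, against 17.8% and 26.7% of all protein-coding genes. The median was 3.64 and the range -0.14 to 5.52, with a median of -0.22 over all protein-coding genes. The exceptions were Ccne1 (-0.01), Ccne2 (0.56) and E2f1 (-0.14), and the largest differences were those of Cdc20 (5.52), Birc5 (5.31), Aurkb (4.92) and Top2a (4.91). With 1 library in each of the 4 groups this difference was not tested.

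Other genes of the same pathways were taken from lists of textbook members. To set beside their counts, 18.5% of all protein-coding genes were at least 2-fold higher with tumor in old tissue and 25.7% lower. In young tissue 5.03% were higher and 1.22% lower. Of 42 further replication genes, 37 were higher by at least 2-fold with tumor in old tissue and 0 lower (median log2 ratio 2.39), and 3 (Uhrf1, Mcm10 and Pole) were higher in young tissue and 0 lower (median 0.22), a share near the 5.03% of all protein-coding genes. Uhrf1, which guides the methylation of newly copied DNA, was at 39.2 and 0.270 FPKM in old tumor-bearing and old naive tissue (145-fold, 91.7 to 245) and at 1.56 and 0.126 FPKM in the young pair (12.4-fold, 6.69 to 25.4). Tk1, a thymidine kinase, was 102-fold higher (49.1 to 253) in old and 1.35-fold (0.881 to 2.07) in young tissue. Cdt1 and Dbf4, a licensing factor and the activating subunit of an origin-firing kinase, were 35.8-fold (23.8 to 56.7) and 42.0-fold (28.1 to 65.8) higher in old tissue. In young tissue Mcm10 and Pole, which act at the fork, were 2.91-fold (1.69 to 5.19) and 2.68-fold (1.82 to 4.03) higher, and Fen1, a flap nuclease, 2.09-fold (1.22 to 3.71). Of 62 further mitosis genes, 55 were higher and 1, Cit, lower in old tissue (median 3.71), and 19 higher and 0 lower in young tissue (median 0.49). Pbk, a mitotic kinase, had 1130 reads in old tumor-bearing and 1 in old naive tissue (760.3-fold, 136 to 30058) and 36 and 8 in the young pair. Cdc25c, the phosphatase that activates CDK1, had 1531 and 3 reads in old tumor-bearing and old naive tissue (406-fold, 117 to 1667) and 68 and 5 in the young pair (13.8-fold, 5.67 to 44.2). The kinesin Kif18b had 911 and 2 reads in the old pair and 35 reads and 1 read in the young pair, and Kif2c 941 and 4 in the old pair and 29 and 1 in the young pair. Ckap2l, a spindle protein, was 219-fold higher (74.8 to 1065) in old and 1.75-fold (1.08 to 2.90) in young tissue.

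G1 regulators and inhibitors were more mixed. Of all protein-coding genes, 18.5% were higher and 25.7% lower in old tissue, and 5.03% higher and 1.22% lower in young tissue. Of 23 further G1 regulators, 13 were higher by at least 2-fold with tumor in old tissue and 1, Mycn, lower (median log2 ratio 2.08), and 2 (Mybl2 and E2f8) were higher in young tissue and 0 lower (median 0.05), again near the share of all genes. Cit, a kinase of cytokinesis that neurons also express, and Mycn, a growth-promoting transcription factor, were named after their values were seen: Cit was at 5.75 and 16.2 FPKM in old tumor-bearing and old naive tissue (2.82-fold lower, 2.68 to 2.97) and Mycn at 0.848 and 3.12 FPKM (3.68-fold lower, 2.74 to 4.99). Cdk6, a kinase partner of D cyclins, was at 12.4 and 0.265 FPKM in old tumor-bearing and old naive tissue (46.6-fold, 36.0 to 61.5) and at 0.493 and 0.217 FPKM in the young pair (2.28-fold, 1.67 to 3.12). Mybl2, which encodes B-MYB, was 28.2-fold (20.3 to 40.5) and 2.84-fold (1.74 to 4.80) higher in old and young tissue. The E2F repressor gene E2f7 had 582 and 8 reads in the old pair (49.0-fold, 24.7 to 114) and 17 and 17 in the young pair, E2f8 465 and 6 (52.1-fold, 23.8 to 143) and 21 and 2 (10.7-fold, 2.62 to 94.4), and the activator gene E2f2 was 7.56-fold (4.83 to 12.4) and 2.33-fold (1.31 to 4.31) higher. Of 10 CDK inhibitors and pocket proteins, which hold the cycle back, 5 were higher and 0 lower in old tissue (median 1.19) and 2, Cdkn2a and Cdkn2b, were higher and 0 lower in young tissue (median 0.09). Cdkn2a was at 53.5 and 0.491 FPKM in old tumor-bearing and old naive tissue (109-fold, 57.3 to 239), Cdkn2b at 6.47 and 0.414 FPKM (15.6-fold, 8.07 to 34.6) and Cdkn2c at 8.76 and 1.07 FPKM (8.18-fold, 6.03 to 11.3). In young tumor-bearing and young naive tissue Cdkn2a had 51 and 4 reads (13-fold, 4.79 to 49.7), Cdkn2b 20 and 3 (6.82-fold, 2.02 to 35.8) and Cdkn2c 99 and 87. Rbl1, which encodes the pocket protein p107, was 20.1-fold higher (14.4 to 28.8) in old and 1.95-fold (1.48 to 2.60) in young tissue. Cdkn1a, the p53-induced inhibitor gene, was at 32.9 and 6.19 FPKM in old tumor-bearing and old naive tissue (5.31-fold, 4.75 to 5.96) and at 6.54 and 8.34 FPKM in the young pair (0.784-fold, 0.694 to 0.887).

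**Figure D5:**
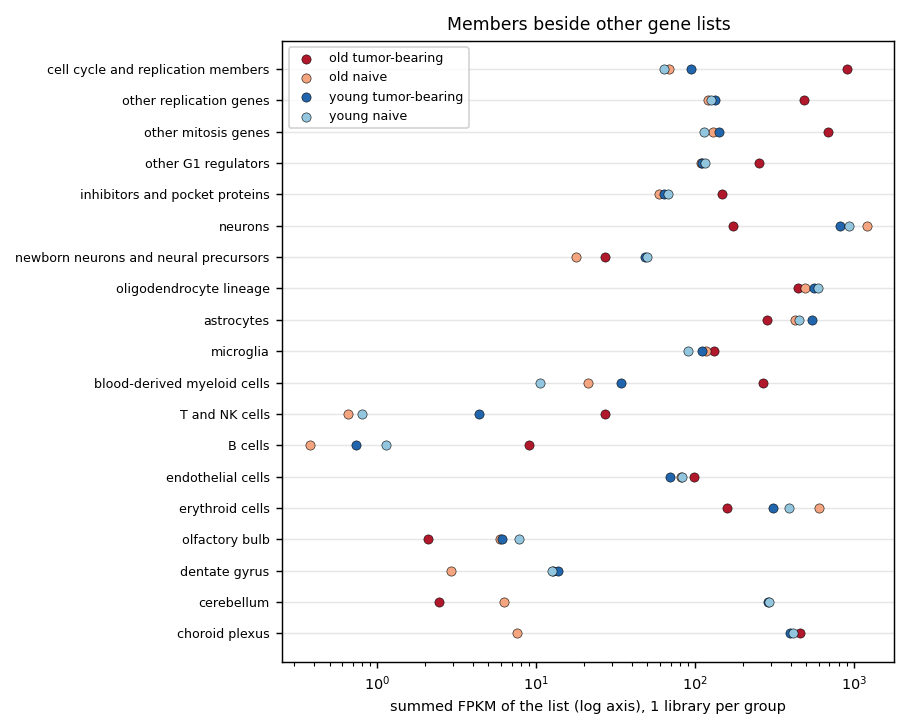
Summed FPKM on a log axis of the 43 genes (top row), of 4 lists of other cell cycle genes and of 14 lists of cell type and region markers, with 1 point for each library. The sum of the 43 genes is 901 in old tumor-bearing tissue and 63.9 to 94.8 in the others, and the T and NK cell sum is 26.9 in old tumor-bearing tissue and 0.650 to 4.34 in the others.

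Markers of cell types that could hold dividing cells were summed in the same libraries. Beside the marker counts here and below, 18.5% of all protein-coding genes were higher by 2-fold and 25.7% lower in old tissue. The shares in young tissue were 5.03% and 1.22%. No list covered the engrafted GL261 cells, so their part in the result was not tested either. The 8 T and NK cell genes summed to 26.9 FPKM in old tumor-bearing and 0.650 in old naive tissue, with 8 of 8 at least 2-fold higher, and to 4.34 in young tumor-bearing and 0.804 FPKM in young naive tissue, with 6 of 8 higher. Cd3e, Cd3d and Ncr1 had 0 reads in old naive tissue, and Cd3d, Cd3g, Cd8a, Cd8b1, Ncr1 and Nkg7 in young naive tissue. The 7 genes of blood-derived myeloid cells summed to 266 and 21.2 FPKM in old tumor-bearing and old naive tissue (5 of 7 higher and 1, S100a9, lower) and to 33.9 and 10.6 FPKM in the young pair (4 of 7 higher, 0 lower), with Ly6c2 at 0 reads in young naive tissue. Lyz2 alone made up most of each of these sums, at 244 and 12.1 FPKM in the old pair and 28.2 and 6.47 FPKM in the young pair. The 5 B cell genes summed to 8.94 and 0.378 FPKM in the old pair (5 of 5 higher) and to 0.734 and 1.13 FPKM in the young pair (0 of 5 higher and 1, Cd79b, lower). These immune sums thus moved with the cell cycle genes in old tissue, and those of T, NK and myeloid cells also in young tissue; their part in the result was not tested.

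Resident and regional markers also differed within the old pair, and their part in the results was not tested. Microglia genes summed to 132 and 117 FPKM in old tumor-bearing and old naive tissue (0 of 6 higher and 1, Sall1, lower) and to 111 and 90.4 FPKM in the young pair (0 of 6 apart). Genes of newborn neurons and neural precursors, one of the lineages with dividing cells in the adult brain, summed to 27.2 and 17.8 FPKM in the old pair (Nes, Eomes and Igfbpl1 higher and the other 5 of 8 lower, with Eomes and Igfbpl1 at 0 reads in old naive tissue) and to 48.6 and 50.1 FPKM in the young pair (0 of 8 apart). The neuronal sum was 173 in old tumor-bearing and 1199 FPKM in old naive tissue, with 8 of 8 genes lower, and 814 and 927 FPKM in young tumor-bearing and young naive tissue. Astrocyte genes summed to 283 and 424 FPKM in the old pair (Gfap higher, and Aldh1l1, Slc1a2 and Slc1a3 lower) and to 542 and 452 FPKM in the young pair (Gfap higher). Neurons, the main cells of the labelled tissue, were thus present by their markers in all 4 libraries and lowest in the old tumor-bearing one. The 5 cerebellar genes, of which Neurod1 is also on the newborn neuron list, summed to 2.44 and 6.23 FPKM in old tumor-bearing and old naive tissue, with Gabra6 at 0 reads in the tumor-bearing one, against 286 and 291 FPKM in young tumor-bearing and young naive tissue. The 5 choroid plexus genes summed to 455, 7.52, 396 and 412 FPKM in old tumor-bearing, old naive, young tumor-bearing and young naive tissue, and mitochondrial genes held 2.12%, 5.44%, 4.72% and 5.51% of the reads. The 4 dentate gyrus genes, of a region that keeps dividing precursors, summed to 12.8, 2.90, 13.7 and 12.6 FPKM in the same order, with C1ql2 and Dsp at least 2-fold higher in old tumor-bearing than in old naive tissue. Erythroid genes summed to 159.7 and 604 FPKM in old tumor-bearing and old naive tissue (5 of 6 lower) and to 308 and 387 FPKM in the young pair. The 7 oligodendrocyte lineage genes summed to 442 and 488 FPKM in old tumor-bearing and old naive tissue. Of these, 1, Sox10, was at least 2-fold higher in that pair (156 and 24.5 FPKM) and 1, Pdgfra, lower (2.72 and 6.10 FPKM). In young tumor-bearing and young naive tissue they summed to 562 and 595 FPKM, with 0 of 7 apart. Cerebellar markers thus split the libraries by age, which cannot be told apart from age itself. The choroid plexus and dentate gyrus sums were low in old naive tissue alone, so that region and tumor cannot be told apart in the old pair. Not every marker followed these sums: Tdo2, of the dentate gyrus list, was at 0.255 and 0.214 FPKM in old tumor-bearing and old naive tissue and at 0.502 and 0.592 FPKM in the young pair.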

How the data were processed

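Mouse brain poly-A RNA was measured in 4 libraries, 1 per group. The authors deposited FPKM per Ensembl gene, per the file headers. HISAT2 and the build mm10 are named for the alignment, per the submitters' processing notes. The program that counted and its annotation are not given in the sources used here, and the labels' protocols describe directional and non-directional libraries without saying which was made, so reads of overlapping antisense genes cannot be told apart. Among smaller overlaps with genes on the opposite strand were 7.25% of the exon bases of Mcm7 (with Ap4m1), 4.48% of Cdca8 and 2.84% of Cdc20 (with Elovl1).

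FPKM times GENCODE M21 exon length came in whole steps of 1 read, which gave the divisor and the reads. Reads were whole for 31928 of 32846 genes with a read (97.2%; within 0.03 reads or 2e-05 of the value) and for 41 of 43 members; for Kif11 and Kif20a the nearest whole number was used. Depth is in the report. Ratios used log2(FPKM + 0.1), a 2-fold threshold and no floor; intervals are exact conditional binomial 95% intervals, and the computation was tested on simulated data. Reads carry no molecular identifiers. No count test was run.

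Members and lists were chosen with earlier results of these data known. All members were to be named, and of each other list the 4 genes with the largest absolute log2 ratio in each tumor comparison; cell type lists are given as sums. Some values of the marker lists are not reported here. Alternatives (scaling, pseudocount, floor, threshold) are in the closing section. Python 3.11.15, numpy 2.4.6, pandas 2.3.3, scipy 1.17.1 and matplotlib 3.10.9 were used.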

Additional observations from a re-analysis of the deposited data

Results flagged for a closer look

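For Pcna and Ccne2, the ratio of tumor-bearing to naive tissue went in opposite directions in the 2 ages. The log2 ratio of Pcna was 1.86 in old and -0.12 in young tissue, a difference of 1.98. That of Ccne2 was 0.47 in old and -0.08 in young tissue, a difference of 0.56. Both young intervals held a ratio of 1, and with 1 library per group neither difference was tested. Pcna has a processed copy, Pcna-ps2, with 18, 1, 5 and 7 reads in old tumor-bearing, old naive, young tumor-bearing and young naive tissue, and 17.4% of the exon bases of Ccne2 are shared with Ints8 on the opposite strand.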

How the results depend on the processing

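The counts of 40 (old tumor-bearing against old naive) and 41 (old against young tumor-bearing) stayed within 1.5 times under each alternative run. In these and in the young tumor comparison 0 genes were lower by the threshold under any alternative, and the medians kept their sign. Between the naive libraries, 1 higher and 2 lower became 1 higher and 0 lower with a pseudocount of 1 or with the whole counting interval beyond 2-fold. With a pseudocount of 1 the medians became 3.25 in old tumor-bearing against old naive, 0.45 in young tumor-bearing against young naive and 2.77 between the 2 tumor-bearing libraries, as low genes are then compressed. The young tumor count of 19 was 3 with a pseudocount of 1, 10 of 26 genes with at least 1 FPKM in a library, 30 at 1.5-fold and 5 at 4-fold. The old against young naive count of 3 was 5 with equal FPKM totals, 1 with a pseudocount of 1, 8 with 0.01, 9 at 1.5-fold, 0 at 4-fold and 1 when the whole counting interval had to lie beyond 2-fold. That last alternative, and leaving out the 12 genes with shared exons, copies with reads or reads not whole, were chosen after seeing the data. Without those 12 genes, 14 of 31 were higher in the young tumor comparison, with a median of 0.92.

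The age by tumor count of 40 stayed within 1.5 times as well, with 29 of 31 genes when those 12 were left out. Scaling shifted the median of all protein-coding genes in that difference by 0.19 to 0.42 and in old against young naive tissue by -0.14 at most. The split of all protein-coding genes in the old tumor comparison was 5054 higher and 2931 lower with equal fragments, 4513 and 3284 with equal FPKM totals and 4131 and 3692 without mitochondrial and the 50 highest genes. Between the tumor-bearing libraries of the 2 ages, median-of-ratios scaling gave 4077 higher and 3173 lower, in place of 2979 and 4629. No paired analysis was possible because the labels give no replicate numbers and each group is 1 library, and for the same reason no library could be left out. Depth limits the ratios against 1 to 3 reads.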
